A study of Canis lupus familiaris with 4 samples.

Results

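The genes described here encode collagens, laminins, nidogens and perlecan, which build the matrix around cells, and the integrins with which cells hold on to it. They were picked by name from the array's annotation: symbols of the form COL, LAMA, LAMB, LAMC, ITGA or ITGB with a chain number or letter, together with HSPG2, NID1 and NID2. Of 58 such genes, 51 had a value on at least 1 array of each transfectant, out of 9575 features (genes, or clones without a single symbol) that met the same condition. The 51 are 20 collagens, 4 laminin chains, 2 nidogens, HSPG2, 13 integrin alpha chains, 7 integrin beta chains and 4 further genes. These 4 have ITGB in their symbol but encode no integrin chain. The other 7 of the 58 are COL12A1, COL18A1, COL4A4, ITGA2B, ITGA4, LAMA2 and LAMC3.

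The cells were MDCK, an epithelial line from dog kidney. E22A and E22B are MDCK cells transfected with E2-2, a helix-loop-helix transcription factor whose gene is TCF4, and are taken to carry its isoforms A and B. Each was hybridised in 2 colours against MDCK-CMV control cells on 2 spotted cDNA arrays, 4 arrays in all, and the series is about factors that act on E-cadherin and on the change from epithelial to mesenchymal cells. The control carries the name MDCK-CONTROL in 1 label. Control and transfected cells were grown in the same medium with serum, per the labels, and the design text calls each transfectant a clone. Neither the vector nor the promoter behind the letters CMV is described, and no transfectant has a biological replicate. Every SD below is over 2 arrays of the same RNA pair and measures technical spread only. Array numbers follow the order of the samples, and the labels tie no array of E22A to one of E22B.

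Collagens are triple-helical proteins. Some assemble into the fibrils of connective tissue, while type IV forms a sheet under epithelia. That sheet, the basement membrane, is completed by laminins, which are trimers of an alpha, a beta and a gamma chain, and by nidogens and perlecan, which tie the layers together. Integrins are pairs of an alpha and a beta chain that span the cell membrane. They bind collagens, laminins or proteins with an RGD motif outside the cell and the actin cytoskeleton inside it. In the epithelial-mesenchymal transition, epithelial cells give up E-cadherin junctions, and their matrix and integrins commonly change as well.

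Values are log2 ratios of the dyes within an array, centred on the array's median, and the base 2 is an assumption from convention. Which dye forms the numerator is nowhere stated in the sources used here. For E22B, title and channel labels name the same dyes, so array 1 was turned and both arrays then point one way. Positive values lie with CDH1 (E-cadherin), called the CDH1 side, and negative values with FN1 (fibronectin), called the FN1 side. Were Cy5 the numerator, as is usual, the CDH1 side would be higher in the transfectant, and this runs against the study's known result, a loss of E-cadherin under E2-2. In E22B, CDH1 stood at 2.39 on array 1 and 0.85 on array 2, and FN1 at -2.08 and -1.36. For E22A the labels conflict over array 1. Its title puts the transfectant in Cy5 and the channel labels put it in Cy3. With the title dyes, r between the E22A arrays was -0.37 over 8834 features, so the direction of E22A is not settled. E22A values are therefore printed in the sign in which they were deposited. The channel labels turn the sign on both E22A arrays and the titles on array 2 only, and the means in both readings are added for the genes with the larger values. In E22A, CDH1 stood at -2.13 and -1.13 in the deposited sign, with a mean of 1.63 ± 0.71 by the channel labels but -0.50 ± 2.30 by the titles.

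Spots with a value numbered 22360 to 23136 per array. Duplicate spots of a clone lay close together, with a median SD of 0.0153 to 0.0215 per array for the clones described here. Arrays of a transfectant lay farther apart, with a median SD over genes of 0.09 in E22B (0.11 over all features). No level can be read from a ratio, so neither the epithelial identity of the cells nor the level of any gene was checked. Of the 12 epithelial markers 8 were measured, and 3 of these lay on the CDH1 side of both E22B arrays, 1 on the FN1 side and 4 on different sides. Of the 10 mesenchymal markers 7 were measured, with 3, 2 and 2 in the same order. Of all these markers DSP, desmoplakin, and FN1 alone were at 2-fold on both E22B arrays, against 0.671% of all features. DSP, an epithelial marker, stood at 1.44 and 1.41 in E22B and at -1.17 and -1.15 in E22A in the deposited sign. Its E22A mean was 1.16 ± 0.02 by the channel labels but -0.01 ± 1.64 by the titles. CDH1 and FN1, which define the sides, are among these counts, and over all features the shares were 34.8% on the CDH1 side and 35.2% on the FN1 side. Their part in the results below was not tested.

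Most collagens, laminins and integrins stood near the control in E22B, as most features did. None of the 51 reached 2-fold on both E22B arrays in 1 direction, against 0.671% of all features. None reached 1.5-fold, against 3.14%. At a lower limit of 0.32 (log2), chosen after the data were seen, ITGB3BP alone passed, 1 of 51, against 9.04%. The median over the 51 was 0.00148, beside -0.00079 over all features, and the median size of a mean was 0.13, beside 0.15. In 48 of the 51 the E22B mean was under 0.5 in size, which is 94.1%, beside 90.9% of all features. By side, 17 lay with CDH1 on both arrays (33.3%, background 34.8%), 18 with FN1 (35.3%, background 35.2%) and 16 on different sides.

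**Figure D1:**
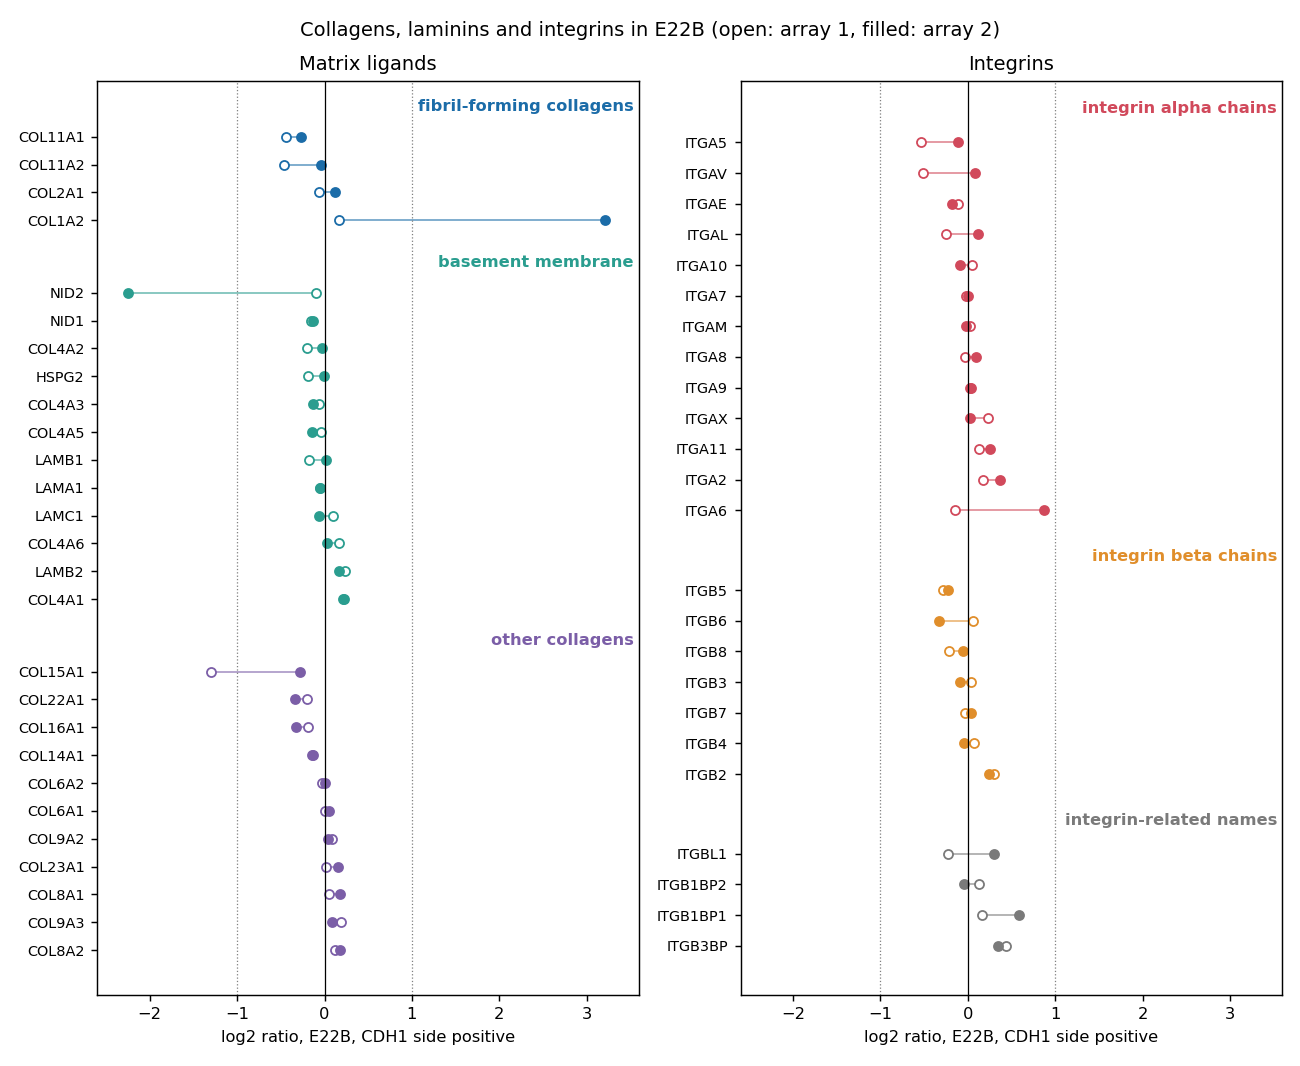
Log2 ratio of each of the 51 genes in E22B on the horizontal axis, CDH1 side positive, with array 1 as an open and array 2 as a filled circle joined by a line, and dotted lines at 2-fold. Most pairs lie close to 0, and COL1A2, NID2 and COL15A1 pass 2-fold on 1 array only.

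The few large values came from single arrays. Over the 4 arrays the 51 genes had 201 values, of which 5 were at 2-fold or more (2.49%, beside 2.5% of all features' values). They belonged to COL15A1 on the first array of each transfectant, ITGA6 on E22A array 2, and COL1A2 and NID2 on E22B array 2. On single arrays, 1 gene passed on E22B array 1 (1.96%, background 2.59%) and 2 on E22B array 2 (3.92%, background 3.21%). On E22A array 1 it was 1 gene (1.96%, background 2.08%), and on E22A array 2 likewise 1 (2.08%, background 2.1%).

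Among the fibril-forming collagens, COL1A2, the alpha 2 chain of type I collagen, had the highest value of all. In E22B it stood at 0.17 on array 1 and 3.21 on array 2, a mean of 1.69 ± 2.15 (SD, n = 2 arrays). The arrays agree in side and differ widely in size. Both duplicate spots on array 2 were high, at 3.38 and 3.02 as deposited. COL1A2 was read by 2 clones, and only the first had a value on E22B array 2. That clone alone gave 0.32 and 3.21 in E22B. In E22A the gene stood at 0.52 and 0.11 in the deposited sign. There the first clone gave 0.52 and 0.67, while the second clone stood at -0.45 on E22A array 2. The E22A mean of the gene was -0.32 ± 0.29 by the channel labels but 0.21 ± 0.45 by the titles. The clones thus lay on opposite sides on the array on which E22A can be compared.

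COL11A1, a minor chain of cartilage-type fibrils, had the most even large values on the E22A arrays. In the deposited sign it stood at 0.92 and 0.80 in E22A, and its E22B values were -0.44 and -0.27, a mean of -0.36 ± 0.12. The channel labels give E22A -0.86 ± 0.08 and put both transfectants on the FN1 side, whereas the titles cancel the E22A arrays to 0.06 ± 1.22. COL11A1 was the only one of the 48 genes measured on both E22A arrays to reach 1.5-fold by the channel labels (2.08%, background 1.95%). COL11A2, its partner chain, stood at -0.46 and -0.04 in E22B and near 0 in E22A, at -0.01 and -0.08 in the deposited sign. COL2A1, the main collagen of cartilage, stood at -0.06 and 0.12 in E22B, on different sides. COL1A1, COL3A1 and the type V collagens are not analysed here.

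The basement membrane genes, 12 in number, had an E22B median of -0.09. On both E22B arrays 3 lay on the CDH1 side and 7 on the FN1 side, with 2 on different sides, beside 34.8% and 35.2% of all features. NID2, nidogen 2, was the lowest of the 51 at -0.10 on array 1 and -2.25 on array 2 (mean -1.17 ± 1.52). Its duplicate spots on array 2 were at -2.25 and -2.27 as deposited, so the spots agree and the arrays do not. In E22A it had a value on array 1 alone, 0.21 in the deposited sign. NID1, the other nidogen, stood at -0.16 and -0.13 in E22B. HSPG2, perlecan, stood at -0.19 and -0.00244.

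Type IV collagen chains stayed within 0.22 of the control on every E22B array. COL4A1 was the highest basement membrane gene at 0.21 and 0.22 (mean 0.22 ± 0.00), a small value with hardly any spread between the arrays. In E22A it stood at -0.25 and -0.19 in the deposited sign, which is 0.22 ± 0.04 by the channel labels but -0.03 ± 0.31 by the titles. COL4A2, which pairs with COL4A1 in the common type IV network, lay on the other side in E22B at -0.20 and -0.03. The chains COL4A3 (-0.06 and -0.13) and COL4A5 (-0.05 and -0.14) of the kidney's filtration barrier also lay on the FN1 side, and COL4A6 at 0.16 and 0.02 on the CDH1 side.

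The 4 laminin chains had E22B means from -0.08 to 0.20. LAMB2, the beta 2 chain, stood at 0.24 and 0.17 in E22B and at -0.37 and -0.31 in E22A in the deposited sign. LAMB1, the beta 1 chain, stood at -0.17 and 0.01 in E22B and at 0.41 and 0.07 in E22A. LAMC1, the gamma 1 chain that most laminins share, stood at 0.10 and -0.06 in E22B and at -0.45 and -0.23 in E22A. By the channel labels the E22A means were 0.34 ± 0.05 for LAMB2, -0.24 ± 0.24 for LAMB1 and 0.34 ± 0.16 for LAMC1. By the titles they were -0.03 ± 0.48, 0.17 ± 0.34 and -0.11 ± 0.48. LAMA1, an alpha chain of early basement membranes, stood at -0.06 and -0.05 in E22B.

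Of the other collagens, COL15A1 had the largest difference from the control. Type XV collagen lies between the basement membrane and the fibrils below it. COL15A1 stood at -1.30 and -0.28 in E22B, a mean of -0.79 ± 0.72. In the deposited sign it gave 1.14 and 0.21 in E22A and 1.30 and -0.28 in E22B. The first array of each transfectant was high in the deposited sign and the second lay much nearer to 0. In E22A the channel labels give -0.68 ± 0.66 and the titles 0.46 ± 0.96.

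The remaining 10 of these collagens had E22B means from -0.27 to 0.15. COL22A1, a collagen of tissue junctions, stood at -0.20 and -0.33 in E22B, and at 0.26 and 0.22 in E22A in the deposited sign. COL16A1, of the fibril-associated class, stood at -0.18 and -0.33, but its 2 clones differed, at -0.59 and 0.08. COL8A2, a network-forming collagen, was the highest of this group at 0.12 and 0.17 (mean 0.15 ± 0.04). In E22A it stood at -0.08 and -0.22 in the deposited sign. The same COL8A2 clone, printed at 3 positions, gave E22B means of 0.06, 0.10 and 0.28. With the median over these positions it stood at 0.10, below COL9A3 at 0.14. COL8A1 stood at 0.05 and 0.18, but its 2 clones gave E22B means of 0.29 and -0.06. COL6A1 and COL6A2, which build beaded filaments, stood at 0.01 and 0.05 and at -0.02 and 0.01. The 2 COL6A1 clones gave E22B means of 0.16 and -0.11. COL14A1 (-0.13 and -0.15), COL23A1 (0.02 and 0.15), COL9A2 (0.09 and 0.04) and COL9A3 (0.19 and 0.09) each kept their side on both E22B arrays.

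**Figure D2:**
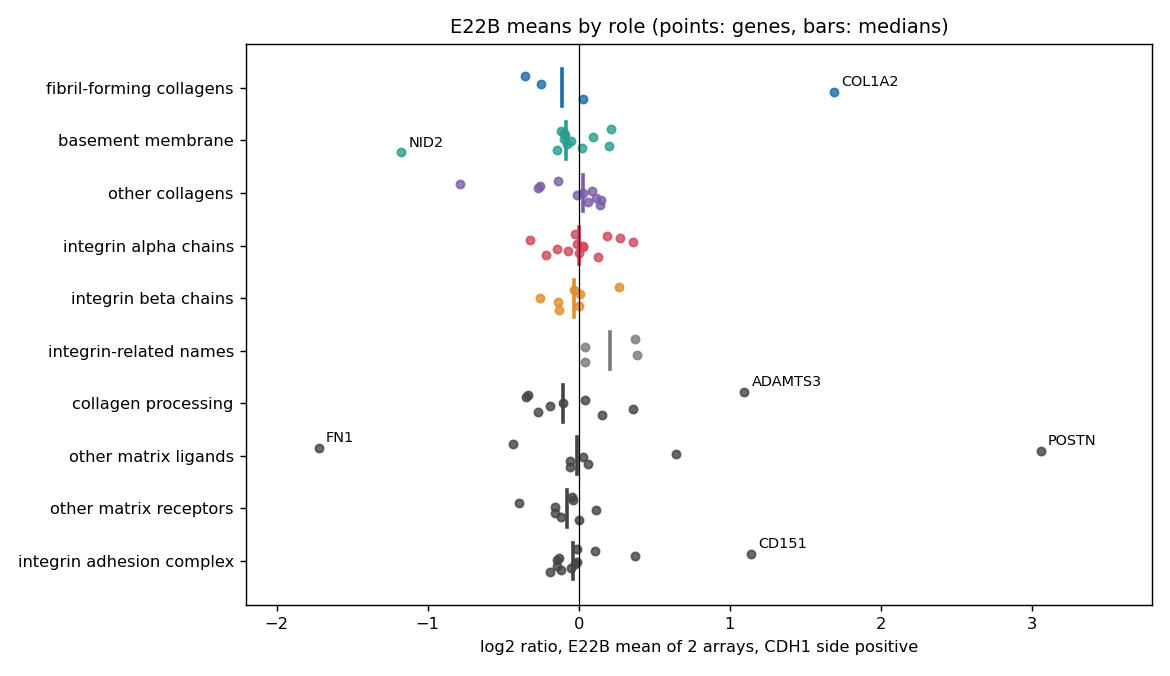
E22B means over the arrays measured, log2, CDH1 side positive, for the 6 role groups and 4 lists of matrix and adhesion genes, with a point per gene and a bar at each median. Group medians lie between -0.11 and 0.21, and FN1, POSTN, ADAMTS3, CD151, COL1A2 and NID2 lie beyond 1 in size.

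The integrins were set beside these ligands by what they bind. The 13 alpha chains had an E22B median of 0.00148 and the 7 beta chains -0.03, and all 20 had a mean under 0.5 in size. The 3 collagen-binding alpha chains lay from -0.02 to 0.27. ITGA2, the epithelial collagen receptor, stood at 0.18 and 0.37 (mean 0.27 ± 0.13). Its value depends on the printed position. The same clone, printed at 3 positions, gave -0.06, 0.41 and 0.47. ITGA11, a fibroblast collagen receptor, stood at 0.12 and 0.25 and ITGA10, a cartilage one, at 0.05 and -0.09.

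Among the laminin receptors, ITGA6, the alpha 6 chain of epithelial laminin receptors, had the largest values of any integrin, and they lay on the second arrays. In the deposited sign it stood at -0.38 and -1.48 in E22A and at 0.15 and 0.87 in E22B. On the second array of each transfectant ITGA6 was far from the control, and on E22B array 1 it lay slightly on the other side after turning. Its E22B mean was 0.36 ± 0.72. The same clone was printed at 2 positions, which read -1.39 and -1.56 on E22A array 2 and 0.90 and 0.84 on E22B array 2, so the positions repeat one another. By the channel labels the E22A mean was 0.93 ± 0.78, and by the titles 0.55 ± 1.31. ITGB4, the beta 4 chain that joins ITGA6 in hemidesmosomes, stood at 0.07 and -0.05 in E22B, on different sides. In E22A its deposited-sign values were -0.44 and -0.40, which is 0.42 ± 0.03 by the channel labels but -0.02 ± 0.60 by the titles. ITGA7, the laminin receptor alpha chain of muscle, stood at -0.02 and -0.00354 in E22B.

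The 7 chains of RGD-binding integrins, the receptors of fibronectin and vitronectin, had an E22B median of -0.14, and 3 of them lay on the FN1 side of both E22B arrays, 0 on the CDH1 side and 4 on different sides. Over all features 35.2% lay on the FN1 side and 34.8% on the CDH1 side. ITGA5, the alpha chain of the main fibronectin receptor, was the lowest integrin at -0.53 and -0.11 (mean -0.32 ± 0.30). Its ligand FN1, which defines the FN1 side, stood at -1.72 ± 0.51 in E22B. In E22A ITGA5 stood at 0.28 and 0.27 in the deposited sign and FN1 at 2.68 and 1.89. The E22A mean of ITGA5 was -0.27 ± 0.00 by the channel labels but 0.00 ± 0.39 by the titles, and that of FN1 was -2.28 ± 0.56 and 0.40 ± 3.23 in the same order. The 2 ITGA5 clones read -0.49 and -0.16 in E22B, both on the FN1 side. ITGB5, a vitronectin receptor chain, was the lowest beta chain at -0.28 and -0.23 (mean -0.26 ± 0.04), and in E22A its values were 0.06 and -0.03 in the deposited sign, with a mean of -0.01 ± 0.07 by the channel labels but 0.05 ± 0.02 by the titles. ITGB8, which binds latent TGF-beta, stood at -0.21 and -0.05. ITGAV, the partner of both, stood at -0.51 and 0.08, on different sides. ITGB6, the epithelial partner of ITGAV, stood at 0.06 and -0.34, ITGB3 at 0.03 and -0.09 and ITGA8, a kidney receptor, at -0.03 and 0.09. The ITGA8 value averages 2 clones that lay on opposite sides, with E22B means of -0.18 and 0.24. In E22A these clones stood at 0.18 and 0.15 and at -0.48 and -0.52 in the deposited sign.

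Among the integrins named for leukocytes, ITGB2, the beta 2 chain, was the highest beta chain at 0.30 and 0.24 in E22B (mean 0.27 ± 0.04). In E22A it stood at -0.43 and -0.46 in the deposited sign, which is 0.45 ± 0.02 by the channel labels but 0.01 ± 0.63 by the titles. Its 2 clones read 0.25 and 0.29 in E22B. The partner chains ITGAL (-0.25 and 0.11), ITGAM (0.02 and -0.02) and ITGAX (0.22 and 0.03) did not share that size. ITGAE, which binds E-cadherin, stood at -0.11 and -0.18, ITGB7 at -0.03 and 0.04 and ITGA9, a tenascin receptor chain, at 0.03 and 0.03. ITGB1, the most widely paired beta chain, and ITGA3 are not analysed here.

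The 4 further genes with ITGB in their symbol are not integrin chains. ITGB3BP, a centromere protein also known to bind the beta 3 tail, stood at 0.44 and 0.34 in E22B (mean 0.39 ± 0.07) and was the single gene of the 51 beyond 0.32 on both E22B arrays. In E22A it stood at -0.02 and -0.52 in the deposited sign, with a mean of 0.27 ± 0.35 by the channel labels but 0.25 ± 0.38 by the titles. ITGB1BP1, a regulator of integrin beta 1 tails, stood at 0.16 and 0.59 in E22B and at -0.09 and -0.77 in E22A in the deposited sign. As for ITGA6, its second-array values were the larger in both transfectants, though the array numbers tie no arrays across transfectants. ITGBL1, a secreted protein with integrin-like repeats, stood at -0.22 and 0.30 in E22B, on different sides, and ITGB1BP2, a muscle protein, at 0.13 and -0.05. In E22A ITGBL1 stood at 0.32 and 0.11 in the deposited sign.

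**Figure D3:**
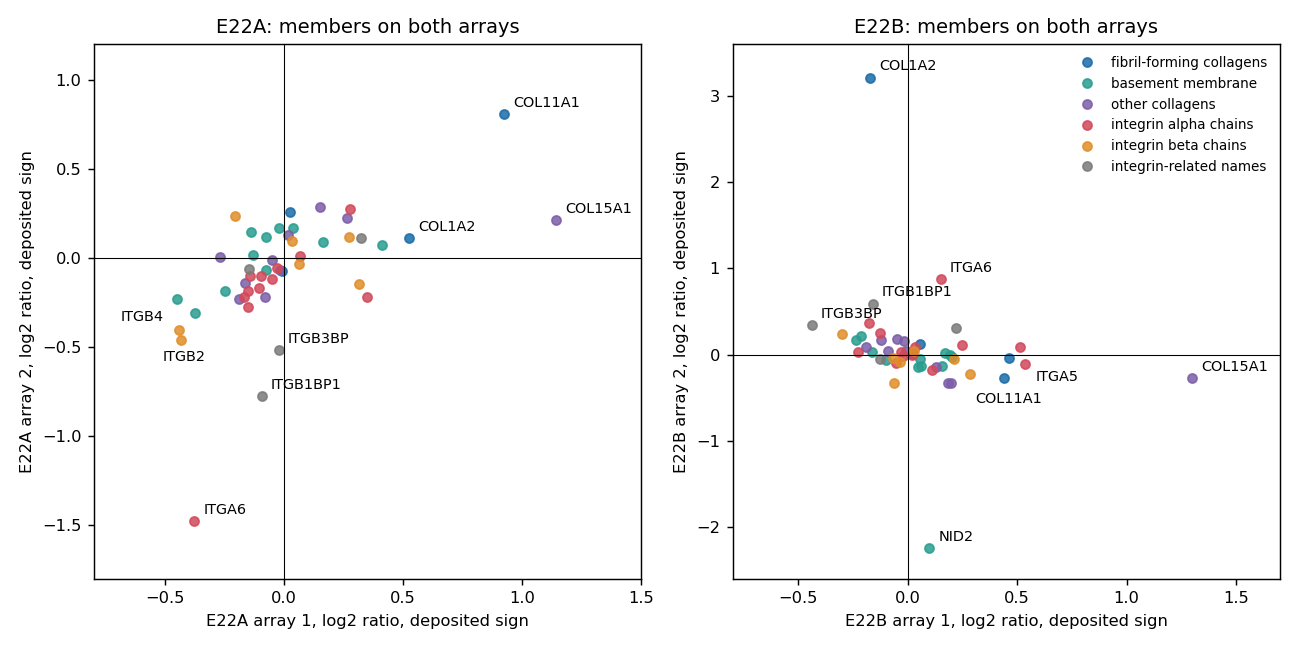
Array 2 against array 1 for each gene in E22A (48 genes) and E22B (51 genes), log2 ratios centred and in the deposited sign, coloured by role. In E22A most genes away from 0 lie in the lower left or upper right, and in E22B COL1A2, NID2 and COL15A1 lie along the axes.

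Measured on both E22A arrays were 48 genes. With the title dyes 0 of them reached 2-fold on both in 1 direction (background 0.034%), and with the channel-label dyes also 0 (background 0.385%). Beyond 0.32 the channel labels gave 4 of 48, ITGA6, ITGB2 and ITGB4 on the CDH1 side and COL11A1 on the FN1 side (8.33%, background 7.63%), and the titles gave 0 (background 1.43%). At any size the titles put 9 of 48 on the same side of both arrays (18.8%, background 32.5%). The channel labels put 24 on the CDH1 side (50%, background 32.8%) and 15 on the FN1 side (31.2%, background 34.6%). In that reading both E22A arrays carry the transfectant in Cy3, a gene's dye effect remains in its mean, and its part was not tested. Across genes, as a description, the E22A arrays correlated at r = 0.57 over the 48 genes in the deposited sign, beside 0.37 over all features. The E22B arrays, of opposite dye, correlated at r = -0.25 over the 51 genes and at -0.36 over the 48 without COL1A2, NID2 and COL15A1, beside -0.40 over all features. Genes on an array share its hybridisation, so they are not independent replicates.

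With both transfectants taken as replicates of E2-2 transfection, the means were tested against 0 over all features with limma and Benjamini-Hochberg adjustment. No gene of the 51 passed an adjusted p of 0.05 in either reading, and neither did any of the 9575 features (0%). Without E22B array 2, 116 features passed by the channel labels, 0 of them among the 51. By the titles the smallest adjusted p among the 51 was 0.987. An unadjusted p under 0.05 was reached by 3 of the 51, ITGA6, ITGB1BP1 and ITGB3BP, against 3.26% of all features. That count was 0 without E22B array 2, 1 without E22A array 2, 3 without E22B array 1 and 6 without E22A array 1. By the channel labels the smallest was 0.115 for COL15A1, with a pooled log2 ratio of -0.73 ± 0.09 (SE, both transfectants negative), and its size comes mostly from array 1 of each. There 9 of the 51 had an unadjusted p under 0.05, against 12.7% of all features. This count fell whichever array was left out, to 6 without array 1 and to 5 without array 2 of either transfectant. Of the 9, COL15A1, COL11A1, ITGA5 and COL22A1 lay on the FN1 side and ITGB1BP1, ITGA6, ITGB2, ITGB3BP and LAMB2 on the CDH1 side. The test has 1 residual degree of freedom and the transfectants share their control, so it has little power and leaves out the control's own spread.

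The transfectants were also set against each other, a difference from which their shared control drops out. With 1 biological sample each, no test was made. By the titles 1 of 48 genes, COL15A1, differed by 2-fold or more without overlap of the arrays (background 1.72%), with E22A at 0.46 ± 0.96 and E22B at -0.79 ± 0.72. By the channel labels 1 of 48, COL1A2, did so (background 1.51%), with E22A at -0.32 ± 0.29 and E22B at 1.69 ± 2.15. Each reading thus named a different gene. On the second arrays COL15A1 read -0.21 and -0.28 by the titles, so its difference lies in the first arrays, and that of COL1A2 lies in E22B array 2. Without E22B array 2 the channel labels named ITGA6 in place of COL1A2. Without E22B array 1 the titles named COL1A2 in place of COL15A1. Leaving out an E22A array gave 2 genes (COL1A2 and ITGA6, without array 1) or 3 (COL11A1, COL15A1 and NID2, without array 2) by the titles.

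Genes that make, join or read this matrix were counted in E22B from lists of enzymes, ligands, receptors and adhesion proteins. Over all features, 0.671% were at 2-fold and 3.14% at 1.5-fold on both E22B arrays in 1 direction. Of the collagen-processing enzymes 9 of 21 were measured. ADAMTS3, which trims procollagen, was at 2-fold on both E22B arrays, at 1.05 and 1.14, on the CDH1 side, and 0 were on the other. In E22A it stood at 0.77 and 0.34 in the deposited sign, with a mean of -0.55 ± 0.31 by the channel labels but 0.22 ± 0.78 by the titles. PLOD2, a lysyl hydroxylase of collagens, was far from 0 on the second arrays only, at 0.90 on E22B array 2 and -1.44 on E22A array 2 in the deposited sign, against -0.19 and -0.04 on the first arrays. Of the other matrix ligands 8 of 16 were measured, and FN1 alone was at 2-fold on both E22B arrays. POSTN, periostin, stood at 0.52 on E22B array 1 and 5.59 on array 2, so like COL1A2 it was high on array 2. In E22A it stood at 1.697 and 1.198 in the deposited sign, beyond 2-fold on both arrays. The E22A mean of POSTN was -1.45 ± 0.35 by the channel labels but 0.25 ± 2.05 by the titles. By the channel labels, 0.385% of all features were at 2-fold on both E22A arrays. In that reading POSTN lay on opposite sides in the transfectants, a difference that was not tested.

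Of the other matrix receptors 8 of 12 were measured. At 1.5-fold on both E22B arrays in 1 direction there were 0, against 3.14% of all features. SDC4, the proteoglycan syndecan 4, was beyond 1.5-fold on each array but on different sides, at -0.65 and 0.66. CD44, the hyaluronan receptor, was the lowest at -0.45 and -0.34, on the FN1 side, where 5 of the 8 lay on both E22B arrays, beside 35.2% of all features. Of the integrin adhesion complex 12 of 22 were measured, 11 of them on both E22B arrays. At 2-fold on both, 1 of the 11 lay on the CDH1 side and 0 on the other, against 0.671% of features on either side. That gene was CD151, a membrane tetraspanin that binds laminin-binding integrins. It stood at 1.02 and 1.27 in E22B (mean 1.14 ± 0.17) and at -0.64 and -1.09 in E22A in the deposited sign, which becomes 0.86 ± 0.32 with the channel-label dyes and 0.23 ± 1.22 with the title dyes. Its adjusted p in the pooled test was 0.102 by the channel labels but 0.987 by the titles (limma). In 7 of the 11 the E22B arrays lay on different sides, beside 2809 of 9383 features. Among the 7 were the linkers TLN1 (-0.33 and 0.23), PARVA (-0.40 and 0.11) and VCL (-0.23 and 0.00138) and the kinase PTK2 (-0.07 and 0.05).

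Repeated positions show how far a value of a gene can be trusted. Of the 51 genes 23 were read at 2 or more positions with a value on both E22B arrays. Where the same source clone was printed again (12 genes), the E22B means of the positions spanned a median of 0.17 and at most 0.53, for ITGA2. Where the clones differed (11 genes), they spanned a median of 0.34 and at most 0.67, for COL16A1. In 11 of the 23 genes the positions lay on both sides of 0, and in 0 of them by 0.5 or more each way. With a largest span of 0.67 no gene could reach that limit, so this 0 does not show that positions agree. Genes whose different clones lay on both sides were COL16A1, COL6A1, COL8A1, ITGA8, ITGAM, ITGB1BP2 and ITGB6. Over the 51 genes the median size of the E22B mean, 0.13, lay below both of these medians. COL1A2 has a single position on both arrays, and NID2, COL15A1 and COL11A1 have 1 position each, so the large values among the collagens and nidogens have no second clone on the same arrays.

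**Figure D4:**
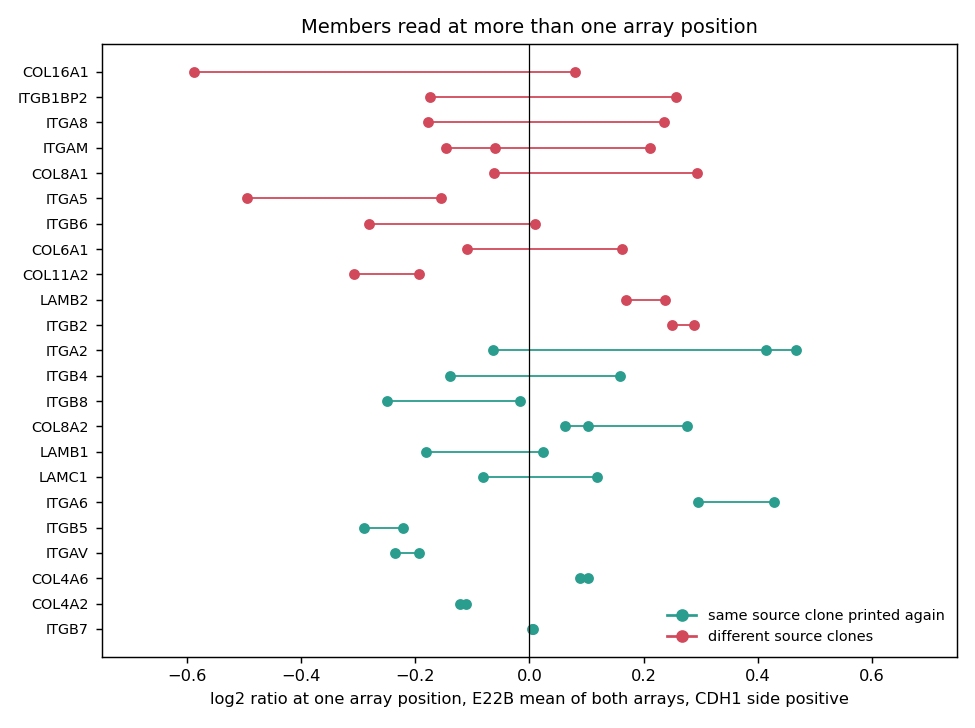
E22B mean of both arrays at each array position, log2, CDH1 side positive, for the 23 genes read at 2 or more positions, split by whether the source clone is the same. Points are positions and lines join those of a gene, and the widest lines are those of COL16A1 (0.67) and ITGA2 (0.53).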

How the data were processed

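Amplified RNA was labelled, per the labels' protocols. The deposited file holds a log2 ratio of the dyes per spot for each array, made by the authors. Image analysis, background correction, normalisation, the log base and the numerator dye are stated nowhere in the sources used here. The deposited medians (-0.00991 to 0.00294) show centred columns. The number of arrays limits the precision, and signal over background was not used here.

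The 27648 spots are duplicates of 13824 clones. The platform annotation, made for human genes, gave 1 symbol for 8744, several for 327 and none for 4753, and 50 of the 51 symbols occur in the dog RefSeq gene table. Dog RNA was read on human clones. Duplicate spots were averaged, arrays centred on their median, and clones averaged by gene over those with a value. No genome build applies, so no positions are given.

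The pooled test used limma 3.58.1 in R 4.3.3 (lmFit, eBayes), and other counts used Python 3.11.15. The pooled test was also run on simulated data with the same spread for every feature. Real spreads differ between genes, so that run is no check on these data. Members and lists were chosen with earlier results of these data known. Values on every array were given first for the highest and lowest gene of each role, for genes at 1.5-fold on both arrays of a transfectant, for CDH1 and FN1, and for list genes at 2-fold on both E22B arrays; other genes are given for completeness. Alternatives were no centring, complete clones, the median over clones, scaled arrays, other thresholds, other dye readings and leaving out each array.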

Additional observations from a re-analysis of the deposited data

Results flagged for a closer look

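On every array measured, 4 genes lay on opposite sides of the control in the transfectants by the titles and 7 others by the channel labels. No size limit was set, and the same count was not made over all features, so an ordinary number is not known. None of these differences was tested. COL1A2 had, by the channel labels, an E22A minus E22B difference of -2.01 (log2), and on E22B array 1 alone it stood at 0.17, against an E22A mean of -0.32. The others by the channel labels were COL23A1 at -0.30, COL8A1 at -0.19, COL16A1 at 0.30, COL11A2 at 0.29, COL4A2 at 0.19 and ITGA7 at 0.14. COL8A1 and COL16A1 each average 2 clones that differed. By the channel labels, the first COL8A1 clone and the second COL16A1 clone lay on the CDH1 side of every array. The second COL8A1 clone stood at 0.30 and 0.32 in E22A in the deposited sign and at -0.22 and 0.10 in E22B. The first COL16A1 clone had no value on E22A array 1. By the titles, the differences were 0.36 for ITGB8, 0.30 for ITGB5, -0.28 for COL9A3 and -0.19 for COL4A6.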

How the results depend on the processing

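Centring, scaling, the median over clones and the use of clones complete on all arrays left each count at 2-fold or more as reported. With complete clones the pooled test by the channel labels called 1 of all features in place of 0, and the genes under an unadjusted p of 0.05 numbered 8 without centring and 10 with scaled arrays, in place of 9. Complete clones moved the E22B median to 0.0239, from 0.00148, over 48 genes, and the cause was not tested. The E22B mean of COL8A2 was 0.10 with complete clones and with the median over clones, in place of 0.15. At 1.5-fold, E22A by the channel labels gave 1 gene (COL11A1). At a limit of 0.32 (log2), added after the data were seen, E22B gave 1 (ITGB3BP), E22A by the channel labels 4, and E22A against E22B 3 by the titles (COL15A1, ITGAV, ITGB8) and 3 by the channel labels (COL11A1, COL1A2, ITGB4). Turning the sign of both E22A arrays in the channel-label reading gave 3 (COL11A1, COL15A1, ITGA6) and in the title reading 1 (COL1A2).

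A single array gave 1 to 2 genes at 2-fold in E22B (COL15A1 on array 1, COL1A2 and NID2 on array 2) and 1 to 1 in E22A in each reading (COL15A1 on array 1, ITGA6 on array 2). The E22B median lay between -0.0233 and 0.00532 on single arrays. Leaving out 1 array gave 1 to 3 genes for E22A against E22B by the titles and 1 to 2 by the channel labels. By the channel labels, ITGA6 took the place of COL1A2 without E22B array 2 and joined it without E22A array 1. By the titles, COL1A2 took the place of COL15A1 without E22B array 1. Without E22A array 1 the title reading gave COL1A2 and ITGA6, and without E22A array 2 it gave COL11A1, COL15A1 and NID2. The pooled test (limma) called 0 of these genes under each alternative in both readings. No paired analysis was possible because the labels give the arrays no replicate numbers.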

Other observations

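Of the genes left out for want of a value in one transfectant, COL12A1, a collagen of the fibril surface, stood at 2.35 on E22A array 2 in the deposited sign and had no value on the other arrays. LAMC3, a laminin gamma chain, stood at 0.64 on E22B array 1 alone, and LAMA2, the laminin alpha chain of muscle, at -0.01 and -0.02 on the E22B arrays, all in the deposited sign.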
